A study of Mus musculus with 15 samples.

Results

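The genes described here are 37 members of the hypoxia response and of glycolysis, chosen by name from every array feature that was not a control: a feature belonged where the gene name in the scanner file was a member's symbol or its current or older symbol. They were 20 genes of glycolysis, from glucose uptake to lactate, and 17 other hypoxia genes, among 30818 gene names in all. The 37 genes had 62 of the 39429 probes on the array. A probe entered the tests where it stood well above background on at least 3 arrays of a group, and 61 member probes for 36 genes did so. The exception was Mxi1, an antagonist of Myc, whose single probe was not well above background on any of the 15 arrays. Each gene is represented by its brightest kept probe.

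Total RNA of mouse cells was labelled with Cy3 and hybridised to Agilent 1-colour arrays in 4 groups of biological replicates: embryonic stem (ES) cells depleted of Cbx7, marked KD33 (4 arrays), ES cells labelled as having no treatment (3), embryoid bodies marked EB9 and KD33 (4), and EB9 without treatment (4). Cbx7 is a chromobox protein of Polycomb repressive complex 1, and embryoid bodies are aggregates in which ES cells differentiate. All depleted samples carry the mark of 1 depletion construct, and the series text calls the ES control shCtr. The ES line, the culture conditions, the oxygen level and the day behind the name EB9 are not given in the labels. Below, "knockdown" stands for the KD33 samples and "control" for those without treatment.

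Cells sense oxygen through prolyl hydroxylases of the Egln family, which mark the alpha subunits of the hypoxia-inducible factors (HIF) for destruction by the von Hippel-Lindau ubiquitin ligase. When oxygen is short the alpha subunit escapes, pairs with Arnt and binds the hypoxia response element, a short motif in regulatory DNA, at genes for glucose uptake, glycolysis, red cell and vessel growth, mitophagy and collagen maturation. Some products of this response, Egln3 among them, feed back on it. Pluripotent cells are known for a high rate of glycolysis.

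The core of the response element was searched for as ACGTG or GCGTG on either strand, from 250 bases before to 50 bases after each RefSeq start (assembly GRCm38.p6). Matches on both strands that overlap were each counted. A promoter was listed for 33 of the 37 members, and 30 of the 33 (90.9%) held the core in at least 1 listed promoter, against 46.7% of the 27025 genes in the table. Counted by promoter, 39 of 51 member promoters held it (76.5%), against 43.8% of 32851. Both cores contain the dinucleotide CG, of which the member promoters held a median of 21 and all promoters a median of 7; the part of this difference in the share was not tested. The 7 members printed next, each with a single listed start, are those the results turn on: Ero1l, Ankrd37 and P4ha2 had the lowest adjusted p among the members raised by knockdown in EB9, Hk2, Pfkp and Egln1 changed in opposite directions in ES cells and EB9, and Tpi1 is one of the 3 genes without a match. Each run is the 250 bases before the start, 5′ to 3′ on the gene's strand, and the capitals mark the core on either strand.
Ero1l (chr14:45318573-45318822, minus strand): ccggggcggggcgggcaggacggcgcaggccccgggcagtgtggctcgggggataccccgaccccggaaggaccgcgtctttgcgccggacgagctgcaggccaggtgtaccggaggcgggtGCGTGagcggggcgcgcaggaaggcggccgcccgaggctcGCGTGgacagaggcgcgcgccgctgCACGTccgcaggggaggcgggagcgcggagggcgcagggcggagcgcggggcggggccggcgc
Ankrd37 (chr8:45999851-46000100, minus strand): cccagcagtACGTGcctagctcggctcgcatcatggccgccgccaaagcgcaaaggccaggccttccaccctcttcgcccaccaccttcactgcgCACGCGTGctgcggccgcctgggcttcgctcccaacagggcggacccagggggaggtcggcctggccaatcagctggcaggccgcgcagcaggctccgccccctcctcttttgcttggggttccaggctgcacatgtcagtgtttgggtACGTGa
P4ha2 (chr11:54100674-54100923, plus strand): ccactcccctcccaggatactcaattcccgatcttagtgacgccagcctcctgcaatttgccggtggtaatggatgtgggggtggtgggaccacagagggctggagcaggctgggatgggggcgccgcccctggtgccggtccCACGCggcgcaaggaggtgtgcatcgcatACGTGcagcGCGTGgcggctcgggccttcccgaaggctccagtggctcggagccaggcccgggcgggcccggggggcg
Hk2 (chr6:82774455-82774704, minus strand): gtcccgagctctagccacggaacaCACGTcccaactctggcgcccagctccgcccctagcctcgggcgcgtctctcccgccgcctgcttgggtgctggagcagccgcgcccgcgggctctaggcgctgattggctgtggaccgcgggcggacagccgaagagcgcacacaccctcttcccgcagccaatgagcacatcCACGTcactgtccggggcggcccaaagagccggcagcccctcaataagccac
Pfkp (chr13:6648772-6649021, minus strand): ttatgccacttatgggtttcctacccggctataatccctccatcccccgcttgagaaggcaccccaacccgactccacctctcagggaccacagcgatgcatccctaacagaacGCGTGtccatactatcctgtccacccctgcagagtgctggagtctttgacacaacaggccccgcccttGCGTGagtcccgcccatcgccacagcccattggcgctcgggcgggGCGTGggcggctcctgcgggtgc
Egln1 (chr8:124949255-124949504, minus strand): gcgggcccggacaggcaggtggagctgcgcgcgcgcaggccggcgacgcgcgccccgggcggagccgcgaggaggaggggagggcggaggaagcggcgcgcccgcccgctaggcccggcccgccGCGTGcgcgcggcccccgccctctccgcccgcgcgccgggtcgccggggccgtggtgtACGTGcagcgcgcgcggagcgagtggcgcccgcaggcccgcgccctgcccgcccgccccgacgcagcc
Tpi1 (chr6:124814159-124814408, minus strand): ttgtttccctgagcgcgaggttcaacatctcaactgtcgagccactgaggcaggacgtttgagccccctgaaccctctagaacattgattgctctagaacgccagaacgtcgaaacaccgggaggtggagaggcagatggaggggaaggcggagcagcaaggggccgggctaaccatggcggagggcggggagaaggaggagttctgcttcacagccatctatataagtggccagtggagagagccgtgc
In these stretches Ankrd37 held 4 matches, Ero1l, P4ha2 and Pfkp 3 each, and Hk2 and Egln1 2 each. The 3 members without a match anywhere in the window were Gpi1, Tpi1 and Eno2. A match is a description of the letters, not evidence of binding.

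Signals are given as log2 of the processed intensity minus the 75th percentile of the same array, so that 0 is the 75th percentile and 1 unit is a 2-fold difference. The array's 75th percentile ranged from 1483 to 2531 intensity units, between 62.5% and 75.4% of features were well above background, and no feature was saturated. Levels are compared only within a probe. Knockdown and control were compared with limma over all 21184 genes, and a gene passed at a Benjamini-Hochberg adjusted p under 0.05. On the Cbx7 probe with the larger change, ES knockdown differed from control by −1.91 (SE 1.23, adjusted p = 0.256). With the slide as a block that difference was −1.41 (adjusted p = 1e-04). In EB9 the difference was −0.27 without the block (adjusted p = 0.92). This probe was well above background on 2 of the 4 ES knockdown arrays and on 2 of 4 in each EB9 group. Its EB9 difference therefore does not show whether the depletion held. A second Cbx7 probe differed by −0.13 in ES cells and −0.16 in EB9 and did not pass (adjusted p = 0.733 and 0.708). There were 4 slides, none of the ES control arrays was on slide 4, and each group kept 1 position on its slides, so a position effect cannot be told apart from a group difference. ES and embryoid identity followed the labels: all 10 pluripotency markers were lower in control EB9 than in control ES cells, and all 6 mesenchyme markers higher.

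In embryoid bodies the knockdown was accompanied by higher expression of hypoxia genes. The members were chosen with earlier results of these data known. Of the 36 members tested, 20 were higher in EB9 knockdown than in EB9 control and 0 lower, where 7.96% of all genes passed higher and 7.2% lower. At an unadjusted limma p under 0.05, 23 members were higher and 1, Car9, was lower, but the share of all genes at that threshold was not counted. Among the hypoxia genes 13 of 16 rose, with a median log2 change of 0.57 over the 16. Among the glycolysis genes 7 of 20 rose, with a median of 0.20. That count was 4 with median scaling, 2 with only the EB9 groups in the fit, 11 with the slide as a block and 12 with array weights (3.2%, 3.09%, 13.5% and 13.7% of all genes higher); with only the EB9 groups, Hk1, Gpi1, Pfkp, Aldoc and Pgam1 did not pass. The median over all genes tested was −0.01. With the slide as a block, 24 members were higher and 1 lower (13.5% and 13.2% of all genes). On 18 members every knockdown array lay above every control array, and on 0 every one lay below, against 8.05% and 7.61% of all genes. In pooled tissue, more cells of a type and more RNA per cell cannot be told apart.

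The steepest rise was that of Ero1l, the endoplasmic reticulum oxidase now called Ero1a, which drives disulfide bond formation. Its signal was 0.75, 0.52, 0.87 and 0.76 in EB9 knockdown and −0.26, −0.03, −0.41 and −0.43 in EB9 control. Every knockdown array lay above every control array, and the change was 1.01 ± 0.09 (SE, adjusted p = 5.52e-05). Ankrd37, a small ankyrin protein induced by HIF, read 3.60, 3.34, 3.51 and 3.68 against 2.96, 2.61, 2.55 and 2.61, a change of 0.85 ± 0.09 (SE, adjusted p = 0.000186). Again the groups did not overlap, although EB9 control 1 stood above the other controls.

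Vegfa, the main growth factor for blood vessels, read 2.84, 2.13, 2.55 and 2.85 in EB9 knockdown and 1.99, 1.69, 1.58 and 1.77 in control, 0.83 ± 0.15 (SE, adjusted p = 0.00382). A second Vegfa probe gave 0.77 (adjusted p = 0.00473), so both probes rose by similar amounts. Adm, the precursor of the vasodilator adrenomedullin, read 0.47, 0.42, 0.57 and 0.70 against 0.08, −0.03, −0.31 and −0.14, 0.64 ± 0.09 (SE, adjusted p = 0.00106). Neither gene's groups overlapped; for Vegfa the lowest knockdown array was replicate 2, which stood closest to the controls.

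Collagen maturation was represented by P4ha1 and P4ha2, the alpha subunits of prolyl 4-hydroxylase. P4ha2 read 5.24, 5.10, 5.42 and 5.38 in knockdown and 4.65, 4.59, 4.55 and 4.53 in control, 0.71 ± 0.06 (SE, adjusted p = 5.33e-05). P4ha1 rose by 0.59 ± 0.09 (SE, adjusted p = 0.0013), and its second probe by 0.59 (adjusted p = 0.00938). Both genes were higher on all 4 slides when knockdown and control of a slide were set side by side.

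The oxygen sensors Egln1 and Egln3 were both higher. Egln1, the main HIF prolyl hydroxylase, read 0.19, −0.37, 0.04 and 0.11 in knockdown and −0.38, −0.54, −0.80 and −0.73 in control, 0.61 ± 0.13 (SE, adjusted p = 0.00859). The groups were separate, with knockdown replicate 2 only slightly above the highest control. Egln3 changed less, 0.24 ± 0.07 (SE, adjusted p = 0.0385), and its groups overlapped; its second probe gave 0.34 (adjusted p = 0.0112). Kdm3a, a histone H3 lysine demethylase that needs oxygen, read 3.85, 3.88, 4.18 and 4.03 against 3.40, 3.54, 3.45 and 3.37, 0.54 ± 0.08 (SE, adjusted p = 0.000758), with no overlap.

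The mitophagy receptors Bnip3 and Bnip3l rose as well. Bnip3 changed by 0.54 ± 0.11 (SE, adjusted p = 0.00542), and its 3 probes gave 0.53 to 0.58, all of which passed. Bnip3l changed by 0.29 ± 0.06 (SE, adjusted p = 0.00434); its 4 probes gave 0.29 to 0.32, of which 3 passed (the fourth at adjusted p = 0.112). Ndrg1, a stress-responsive gene of differentiation, rose by 0.74 ± 0.09 (SE, adjusted p = 0.000271), and Ddit4, an inhibitor of mTORC1 signalling, by 0.49 ± 0.07 (SE, adjusted p = 0.000807). All 4 genes were separate between the groups.

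The HIF alpha subunits themselves did not pass. Hif1a read 0.34, −0.05, 0.10 and 0.06 in EB9 knockdown and 0.22, 0.11, 0.29 and 0.35 in control, −0.13 ± 0.09 (SE, adjusted p = 0.386), with overlapping groups. Epas1, which encodes HIF-2 alpha, differed by 0.12 ± 0.16 (SE, adjusted p = 0.716) on its brightest probe. Its 2 other probes gave −0.31 (adjusted p = 0.109) and −0.50 (adjusted p = 0.024), so the probes of Epas1 disagree. Car9, the cell-surface carbonic anhydrase that is a classical HIF target, had no higher value: it read −6.88, −5.97, −6.39 and −6.35 in knockdown and −6.21, −5.40, −5.84 and −6.03 in control, −0.53 ± 0.18 (SE, adjusted p = 0.0676). The difference was negative on each of the 4 slides and passed with the slide as a block (adjusted p = 0.0295). Car9 was dim in embryoid bodies, well above background on 3 of the 4 arrays of each EB9 group.

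Of the 7 glycolysis genes that rose, 4 encode sugar kinases. Hexokinase 2 (Hk2), which traps glucose in the cell, read 4.53, 4.32, 4.55 and 4.64 in EB9 knockdown and 3.97, 3.92, 3.70 and 3.79 in control, 0.67 ± 0.08 (SE, adjusted p = 0.000217). Phosphofructokinase Pfkp read 1.71, 1.89, 2.24 and 2.16 against 1.31, 1.53, 1.60 and 1.42, 0.54 ± 0.10 (SE, adjusted p = 0.00516). Pfkfb3, which makes the activator of phosphofructokinase, read 3.87, 3.67, 3.87 and 3.97 against 3.33, 3.36, 3.18 and 3.18, 0.58 ± 0.07 (SE, adjusted p = 0.000433). None of these 3 genes overlapped between the groups, and the second probes of Pfkp and Pfkfb3 gave 0.65 (adjusted p = 0.0213) and 0.75 (adjusted p = 0.00547).

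Aldoc, an aldolase, rose by 0.54 ± 0.10 (SE, adjusted p = 0.00453). The isomerase Gpi1 rose by 0.27 ± 0.06 (SE, adjusted p = 0.0127), with 0.30 and 0.31 on its other probes, both of which passed. Pgam1, a phosphoglycerate mutase, rose by 0.24 ± 0.05 (SE, adjusted p = 0.0115), and Hk1 by 0.36 ± 0.11 (SE, adjusted p = 0.0435). The second Hk1 probe gave 0.38 without passing (adjusted p = 0.153). The calls of Hk1 and Egln3 lay close to the threshold, and each was lost in 11 of 15 refits that left out 1 array. Adjusted p went up to 0.126 for Hk1 and 0.112 for Egln3, both without EB9 knockdown 4. Some of these refits left out an ES array, which does not enter the EB9 change but shares its spread estimate. Hk1 passed only without EB9 control 1, EB9 knockdown 2, ES control 2 or ES knockdown 3, and Egln3 only without EB9 control 2, EB9 knockdown 1, ES control 2 or ES knockdown 2.

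The other 13 glycolysis genes did not pass in EB9. Their log2 changes ran from 0.05 for Pfkm to 0.32 for Eno2, except for Aldoa at −0.78. Pfkl, Tpi1, Eno2 and Pkm2 passed with the slide as a block, at 0.15, 0.17, 0.32 and 0.20 (adjusted p = 0.0235, 0.0211, 0.0458 and 0.0244). Lactate dehydrogenase Ldha read 7.23, 7.08, 7.27 and 7.47 in knockdown and 7.33, 6.82, 7.03 and 6.998 in control, 0.22 ± 0.11 (SE, adjusted p = 0.198), with overlapping groups. Pgk1 and Ldha passed when EB9 control 1 was left out, at 0.28 and 0.31 (adjusted p = 0.0129 and 0.0384). The glucose transporters Slc2a1 and Slc2a3 differed by 0.18 and 0.10 and did not pass (adjusted p = 0.208 and 0.503). Gapdh had 7 probes, with changes of 0.04 to 0.22, none of which passed; one of them maps to another chromosome than Gapdh itself, and copies of this gene are numerous in the genome.

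Aldoa was set apart by 1 array. It read 7.84, 7.59, 7.93 and 4.14 in EB9 knockdown and 7.97, 7.47, 7.64 and 7.56 in control, so that EB9 knockdown 4 alone was low. The SE of its change was 0.64, against 0.05 to 0.18 for the other members. Without that array the EB9 knockdown change turned from −0.78 to 0.13 and did not pass either way (adjusted p = 0.48 and 0.646). The difference between knockdown EB9 and knockdown ES cells then turned from −0.36 to 0.55 and passed (adjusted p = 0.00229), and that between the control groups, 0.67, passed as well (adjusted p = 0.000606, against 0.4 with it).

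**Figure D1:**
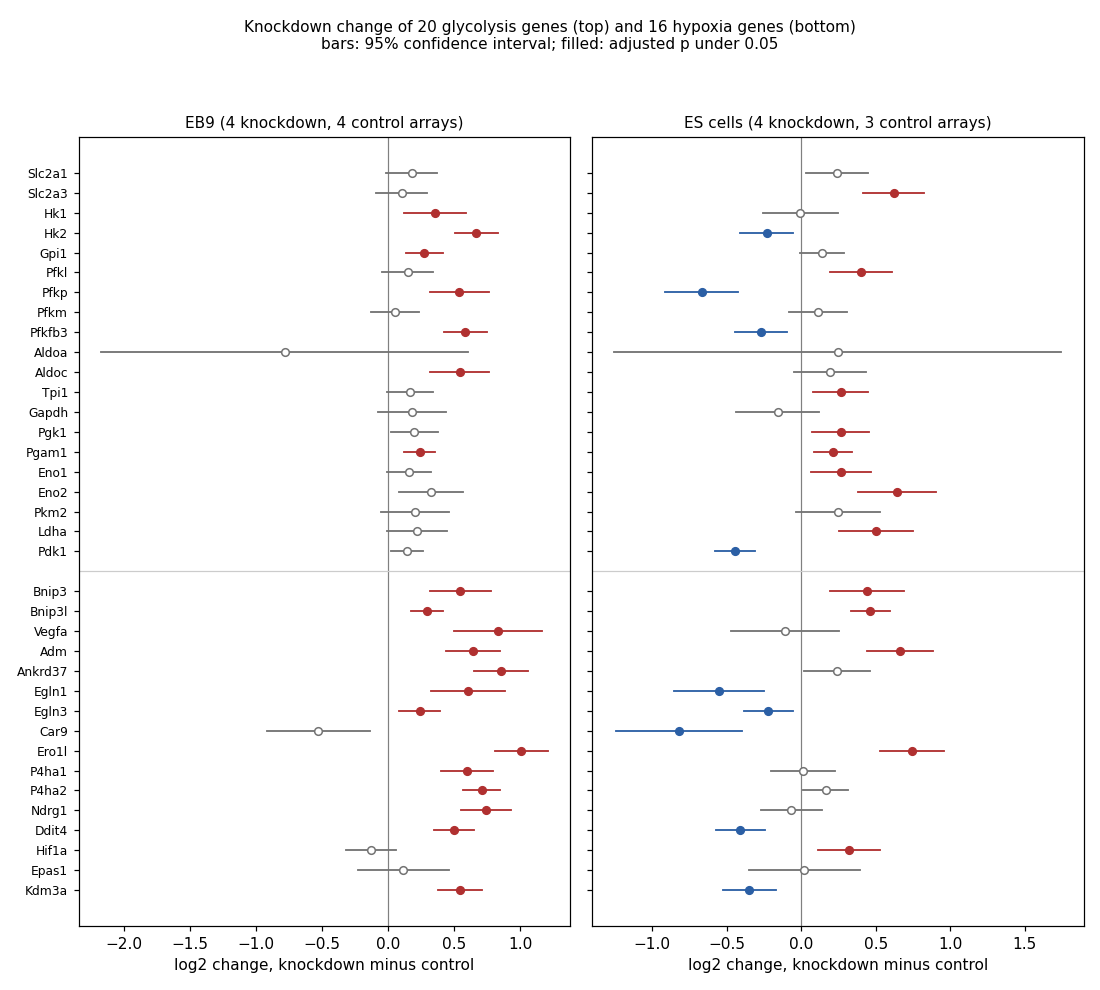
Log2 change between knockdown and control in EB9 (left) and in ES cells (right) for the 20 glycolysis genes (top) and the 16 tested hypoxia genes (bottom), with 95% confidence intervals from limma; red and blue filled points passed higher and lower. In EB9, 20 genes are higher and 0 lower, with Ero1l at 1.01; in ES cells 13 are higher and 9 lower. The wide interval is that of Aldoa.

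When each knockdown array was set against the control array of its slide, the EB9 difference was above 0 for 27, 33, 34 and 33 of the 36 members on slides 1, 2, 3 and 4. Over all genes 47.4%, 40.9%, 51.2% and 56.6% were above 0. The median member difference was 0.13, 0.18, 0.42 and 0.47 on the 4 slides, against −0.02, −0.04, 0.01 and 0.05 over all genes. For the 16 hypoxia genes alone it was 0.44, 0.42, 0.71 and 0.69, and for the glycolysis genes 0.04, 0.17, 0.28 and 0.44. The size of the rise thus varied between slides, and the sign of the median did not.

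In ES cells the same genes divided. Of the 36 members, 13 were higher in ES knockdown than in ES control and 9 lower, where 22% of all genes passed higher and 16.5% lower. The glycolysis genes gave 8 higher and 4 lower (median 0.22), the hypoxia genes 5 higher and 5 lower (median 0.02), and the median over all genes was 0.04. With the slide as a block 14 were higher and 9 lower (27.3% and 20.1% of all genes). The groups did not overlap for 18 members that were higher and 9 that were lower, against 27.6% and 22% of all genes. The count of higher members depended on the scaling. It was 13 with the 75th percentile, 6 with the median and 9 with quantile normalization, while the lower members numbered 9, 6 and 10. Over all 21184 genes, 4654, 3402 and 4039 were called higher and 3493, 2325 and 3654 lower. With the authors' values 3716 genes were higher and 3570 lower. With the median, the members called higher were close to the share of all genes. The glycolysis genes called higher numbered 4 with quantile normalization or the authors' values, 3 with median scaling, 13 with array weights, and 5 without ES control 3, ES control 4, ES knockdown 1 or ES knockdown 4. Those called lower numbered 2 with median scaling or without ES control 3 or ES knockdown 4. The hypoxia genes numbered 3 higher with median scaling and 3 lower with the authors' values. For array weights and the fits without an array, these counts are given without the share of all genes. A shift of these counts is therefore not by itself a result about the members.

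Ero1l was again high in the knockdown, with −2.17, −2.09, −2.08 and −2.10 in ES knockdown and −2.87, −2.76 and −2.92 in ES control, 0.74 ± 0.10 (SE, adjusted p = 7.92e-05). Adm read −2.57, −2.81, −2.82 and −2.56 against −3.27, −3.39 and −3.40, 0.66 ± 0.10 (SE, adjusted p = 0.000237). Bnip3 and Bnip3l rose by 0.44 ± 0.11 (SE, adjusted p = 0.00846), and by 0.46 ± 0.06 (SE, adjusted p = 5.68e-05). None of these 4 genes overlapped between the groups, and all 4 were also called higher in EB9.

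On the glycolysis side the neuronal-type transporter Slc2a3 read 6.12, 5.98, 5.94 and 6.08 in ES knockdown and 5.50, 5.37 and 5.37 in control, 0.62 ± 0.10 (SE, adjusted p = 0.000235). Ldha read 6.96, 6.85, 6.71 and 6.93 against 6.38, 6.35 and 6.36, 0.50 ± 0.11 (SE, adjusted p = 0.00356), and its other probes gave 0.64 and 0.73. Eno2, the neuronal enolase, rose by 0.64 ± 0.12 (SE, adjusted p = 0.00103). Each of these genes was separate between the groups. Pfkl rose by 0.40 ± 0.10 (SE, adjusted p = 0.00516), and the smaller changes of Pgk1, Tpi1, Eno1 and Pgam1 were 0.27, 0.26, 0.27 and 0.21 (adjusted p = 0.0304, 0.0262, 0.0413 and 0.0119).

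The 9 lower members included the sensor Egln1 and several kinases. Egln1 read −3.97, −3.71, −3.99 and −4.07 in ES knockdown and −3.26, −3.39 and −3.50 in ES control, −0.56 ± 0.14 (SE, adjusted p = 0.00678). Pfkp read 1.39, 1.42, 1.45 and 1.42 against 1.96, 2.16 and 2.14, −0.67 ± 0.11 (SE, adjusted p = 0.000461). Car9 read −2.20, −2.27, −2.15 and −2.24 against −1.44, −1.40 and −1.34, −0.82 ± 0.19 (SE, adjusted p = 0.0049). All 3 genes were lower on every knockdown array than on any control array. Pdk1, the kinase that shuts pyruvate dehydrogenase, read −0.03, −0.10, −0.03 and −0.10 against 0.34, 0.44 and 0.36, −0.45 ± 0.06 (SE, adjusted p = 0.000102). Ddit4 changed by −0.41 ± 0.08 (SE, adjusted p = 0.000871), and Kdm3a by −0.35 ± 0.08 (SE, adjusted p = 0.00465). Pfkfb3, Hk2 and Egln3 were lower by smaller amounts, at −0.27, −0.23 and −0.22 (adjusted p = 0.0169, 0.04 and 0.0356).

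Hif1a, the oxygen-regulated subunit, read −0.14, −0.44, −0.19 and −0.15 in ES knockdown and −0.53, −0.56 and −0.56 in control, 0.32 ± 0.10 (SE, adjusted p = 0.0182). A second probe, well above background on 10 of the 15 arrays, that carries the Hif1a name through another transcript record changed the other way, by −0.79 (adjusted p = 0.0322), and the mean of both probes gave −0.24 (adjusted p = 0.216). The direction for Hif1a therefore depends on the probe. Epas1, Vegfa, P4ha1 and Ndrg1 differed by 0.02, −0.11, 0.01 and −0.07 in ES cells and did not pass. Ankrd37 differed by 0.24 and did not pass (adjusted p = 0.0855), whereas it passed with the slide as a block (0.0406), the authors' values (0.0299), only the ES groups in the fit (0.0213), array weights (0.00318) or without EB9 control 1 (0.0282). Pkm2 differed by 0.25 and did not pass (adjusted p = 0.16), whereas it passed with the slide as a block (0.21, adjusted p = 0.0176) and with array weights (0.36, adjusted p = 0.00455). The brightest Gapdh probe differed by −0.16 and did not pass (adjusted p = 0.372). It passed lower with quantile normalization (−0.37, adjusted p = 0.00107) and the authors' values (−0.47, adjusted p = 6.47e-05). The other Gapdh probes gave 0.12 to 0.28, the last of which passed (adjusted p = 0.0432), so the direction depends on the probe.

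Leaving out single arrays ended 7 of the ES calls. Hk2 lost its call without ES control 3 or 4 or ES knockdown 1, 3 or 4 (adjusted p up to 0.147). Tpi1 lost it without ES control 3 or 4 or ES knockdown 1 or 4 (up to 0.101), and Pgk1 without ES control 2, 3 or 4 or ES knockdown 1, 2 or 4 (up to 0.0904). Eno1, whose spot on ES control 2 was left out as an outlier, lost it without ES control 3 or 4 or ES knockdown 1, 2 or 4 (up to 0.257), and with the slide as a block (adjusted p = 0.0696). Egln3 lost it without any 1 of the 3 ES controls or without ES knockdown 1, 3 or 4 (up to 0.103). Pfkfb3 lost it without ES control 2 or 3 or ES knockdown 4 (up to 0.0634), and Hif1a without ES control 3 or 4 (up to 0.0548).

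Set side by side, the EB9 and ES comparisons share no array. They do share slides and the spread estimated over all 15 arrays, so they are not independent tests. In both, 5 members were called higher: Pgam1, Bnip3, Bnip3l, Adm and Ero1l. Another 7 were called higher in EB9 and lower in ES cells, namely Hk2, Pfkp, Pfkfb3, Egln1, Egln3, Ddit4 and Kdm3a. Joint calls, here and below, were not counted over all genes, so these numbers are not shown to be particular to the members. Adm and Ero1l kept both calls under all 29 alternatives, as did Ddit4 and Kdm3a in opposite directions. Pgam1 lost its ES call with quantile normalization (0.04, adjusted p = 0.578), median scaling (0.24, 0.123) and the authors' values (0.08, 0.343), and its EB9 call with median scaling (0.301), the authors' values (0.0527) and only the EB9 groups (0.0582). Bnip3 lost both calls with median scaling (adjusted p = 0.0839 in EB9 and 0.0591 in ES cells), and Bnip3l its EB9 call (0.0753). With the authors' values Egln1 was at −0.31 in ES cells and lost its call there (adjusted p = 0.135), as did Hk2 (0.0586) and Egln3 (0.123); with median scaling Hk2 (0.199), Pfkfb3 (0.121) and Egln3 (0.106) lost theirs. With only the EB9 groups in the fit, Pfkp, Egln1 and Egln3 lost their EB9 calls (0.0559, 0.0567 and 0.158). In the main comparison a further 8 were called in EB9 alone, 10 in ES cells alone, and 6 in neither. The difference of the knockdown effect was tested itself, as the signed change in EB9 minus that in ES cells. It passed above 0 for 13 members and below 0 for 2, against 12.7% and 17% of all genes. Among the hypoxia genes these were 9 and 1 of 16, and among the glycolysis genes 4 and 1 of 20. With the slide as a block 14 passed above 0 and 3 below (17.5% and 23.5% of all genes). The added calls were Hk1 (0.38, adjusted p = 0.0163, against 0.109 without the block) and Pfkl (−0.24, adjusted p = 0.00959, against 0.178). A difference above 0 need not mean a larger change in EB9: Pdk1 changed by 0.14 in EB9 and by −0.45 in ES cells.

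For Pfkp the difference of effects was 1.21 ± 0.15 (SE, adjusted p = 9.94e-05), the largest among the members that passed, and for Egln1 it was 1.16 ± 0.19 (SE, adjusted p = 0.000604). Hk2 (0.90), Kdm3a (0.89), Pfkfb3 (0.86), Ddit4 (0.91) and Egln3 (0.46) completed the group with opposite calls, and all 7 passed. Vegfa (0.94), Ndrg1 (0.80), Ankrd37 (0.62), P4ha1 (0.58) and P4ha2 (0.54) passed too; all 5 were called in EB9 and none in ES cells. Pdk1 passed at 0.59, with a call in ES cells alone. In the opposite sense, Slc2a3 had −0.52 ± 0.13 (SE, adjusted p = 0.00936), and Hif1a −0.45 ± 0.13 (SE, adjusted p = 0.0199) on its brightest probe. The second Hif1a probe passed in the other direction, at 1.204 (adjusted p = 0.0246). The call of Slc2a3 was lost with the authors' values (−0.45, adjusted p = 0.062), and with median scaling those of the brightest Hif1a probe (0.101), P4ha1 (0.115) and Ankrd37 (0.0833) were lost. For Ero1l, Adm, Bnip3 and Bnip3l the differences were 0.26, −0.02, 0.10 and −0.17, with 95% confidence intervals of −0.03 to 0.56, −0.33 to 0.28, −0.23 to 0.44 and −0.35 to 0.01. These 4 did not pass, which does not show that their responses are alike. With the authors' values Ero1l and Bnip3 did pass, at 0.44 and 0.30 (adjusted p = 0.0458 and 0.0168), and Ero1l also with array weights (0.40, adjusted p = 0.00733) and without EB9 control 2 (0.35, adjusted p = 0.0341).

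**Figure D2:**
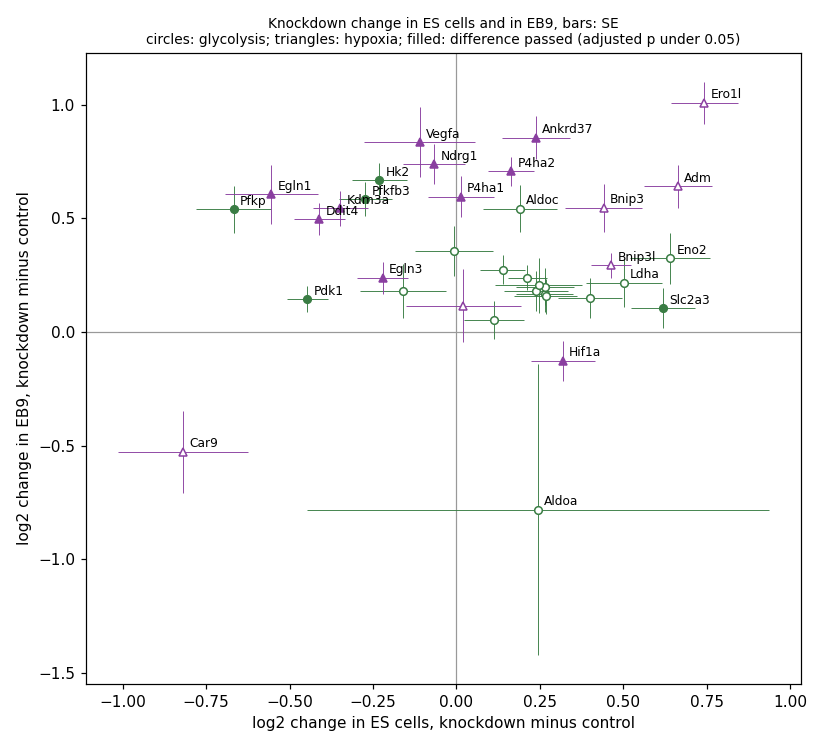
Log2 change between knockdown and control in ES cells (horizontal) and in EB9 (vertical) for the 36 members, with SE bars; circles are glycolysis genes and triangles hypoxia genes, and filled symbols passed the test of the difference. The 7 members with opposite calls lie at the upper left, and Ero1l at the upper right with 0.74 in ES cells and 1.01 in EB9.

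**Figure D3:**
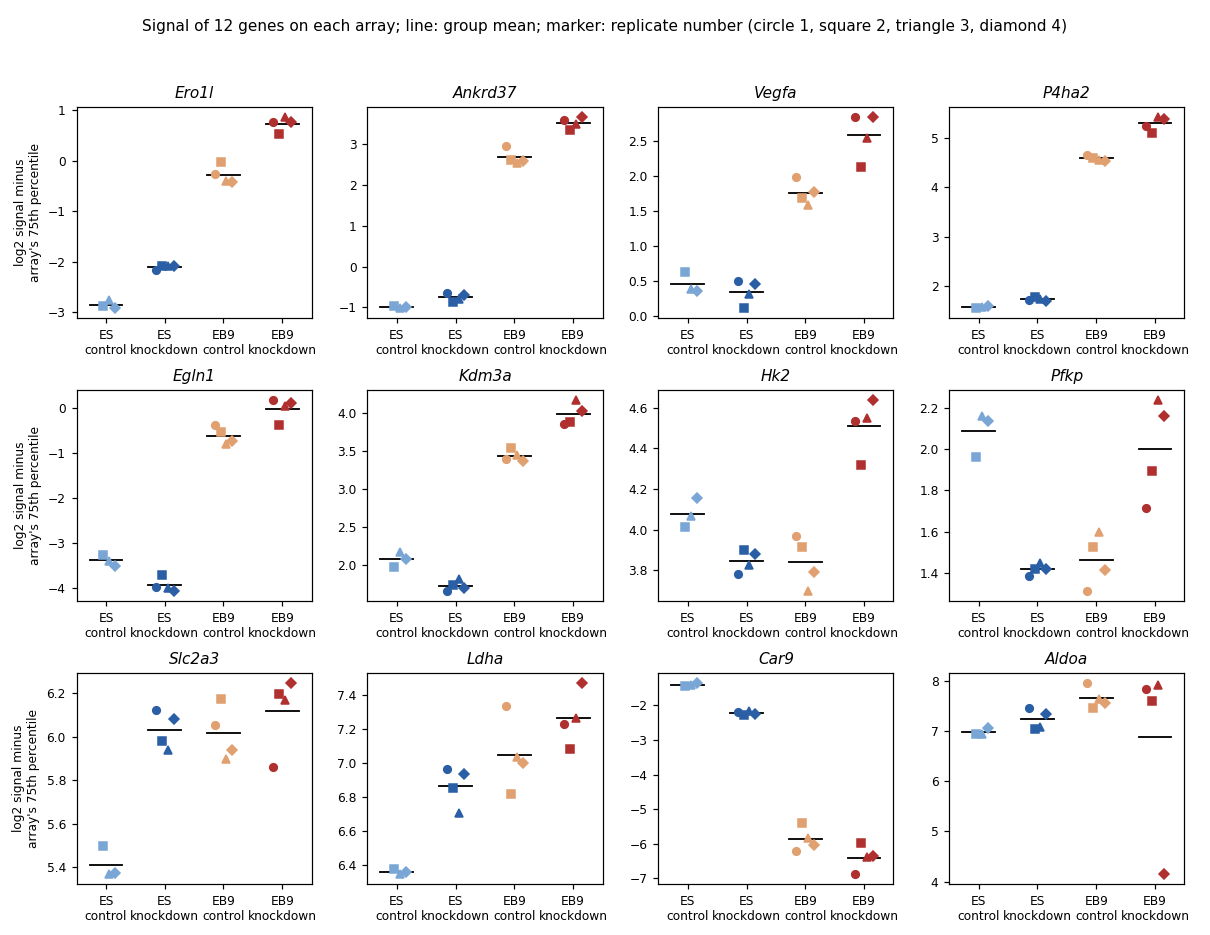
Signal of 12 members on each of the 15 arrays, as log2 minus the 75th percentile of the array, with the group mean as a line and the replicate number as the marker. Hk2 and Pfkp are lower in ES knockdown and higher in EB9 knockdown than in their controls, and Aldoa on EB9 knockdown 4 lies at 4.14, far below the other arrays.

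The members as a group were higher in embryoid bodies than in ES cells without any knockdown. Between the control groups 28 of 36 were higher in EB9 and 5 lower, where 33.3% of all genes passed higher and 41.5% lower. The groups did not overlap for 29 higher and 5 lower members, against 32.8% and 40.1% of all genes. Hypoxia genes carried the larger changes: 14 of 16 were higher and 1 lower with a median of 2.50, against 14 and 4 of 20 and a median of 0.75 for glycolysis. The median of all genes was −0.14 in this comparison and 0.02 when arrays were scaled to their median, so the members' changes are to be read against that shift.

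Ankrd37 rose most, from −0.96, −1.03 and −1.001 in ES control to the EB9 control values given above, 3.68 ± 0.10 (SE, adjusted p = 1.39e-12), which is 12.8-fold. Egln3 rose by 3.56 ± 0.08 (SE, adjusted p = 1.2e-13), Adm by 3.25 ± 0.10 (SE, adjusted p = 4.53e-12), and Pfkfb3 by 3.15 ± 0.08 (SE, adjusted p = 6.19e-13). P4ha2, P4ha1, Egln1, Ndrg1, Ero1l and Bnip3 rose by 3.01, 2.87, 2.77, 2.63, 2.57 and 2.42. All of these were separate between the groups, with adjusted p of 5.09e-10 or less. In glycolysis, besides Pfkfb3, the genes from Tpi1 (1.94), Slc2a1 (1.86) and Pfkl (1.78) down to Eno1 (0.61) and Slc2a3 (0.60) were higher.

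The lower members were Car9, Hk1, Pfkp, Eno2 and Hk2. Car9 fell by far the most, from −1.44, −1.40 and −1.34 in ES control to −6.21, −5.40, −5.84 and −6.03 in EB9 control, −4.48 ± 0.19 (SE, adjusted p = 1.16e-10), or 22.2-fold, the opposite of the other hypoxia targets called. Hk1 changed by −0.80 ± 0.12 (SE, adjusted p = 2.89e-05), Pfkp by −0.62 ± 0.11 (SE, adjusted p = 0.000201) and Eno2 by −0.58 ± 0.12 (SE, adjusted p = 0.000618). The small fall of Hk2, −0.23 ± 0.08 (SE, adjusted p = 0.0192), lost its call without EB9 control 3 (adjusted p = 0.0583) or ES control 4 (0.081) and under every other scaling tried. Gapdh and Ldha depended on the probe. The brightest Gapdh probe gave 0.03, while the 6 others gave 0.31 to 0.51 and passed; the brightest Ldha probe gave 0.68 and the 2 others 2.18 and 2.14.

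In the knockdown, 30 members were higher in EB9 than in ES cells and 3 lower (33.7% and 44.2% of all genes), with medians of 2.74 for the hypoxia genes and 0.79 for glycolysis. Here 29 higher and 3 lower members did not overlap, against 32.2% and 42% of all genes. Pfkp and Hk2 were higher here, 0.58 ± 0.10 (SE, adjusted p = 0.000171), and 0.66 ± 0.08 (SE, adjusted p = 2.35e-06), whereas both were lower in the control comparison. Both comparisons of EB9 with ES cells share their arrays with the knockdown comparisons and add no separate evidence.

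**Figure D4:**
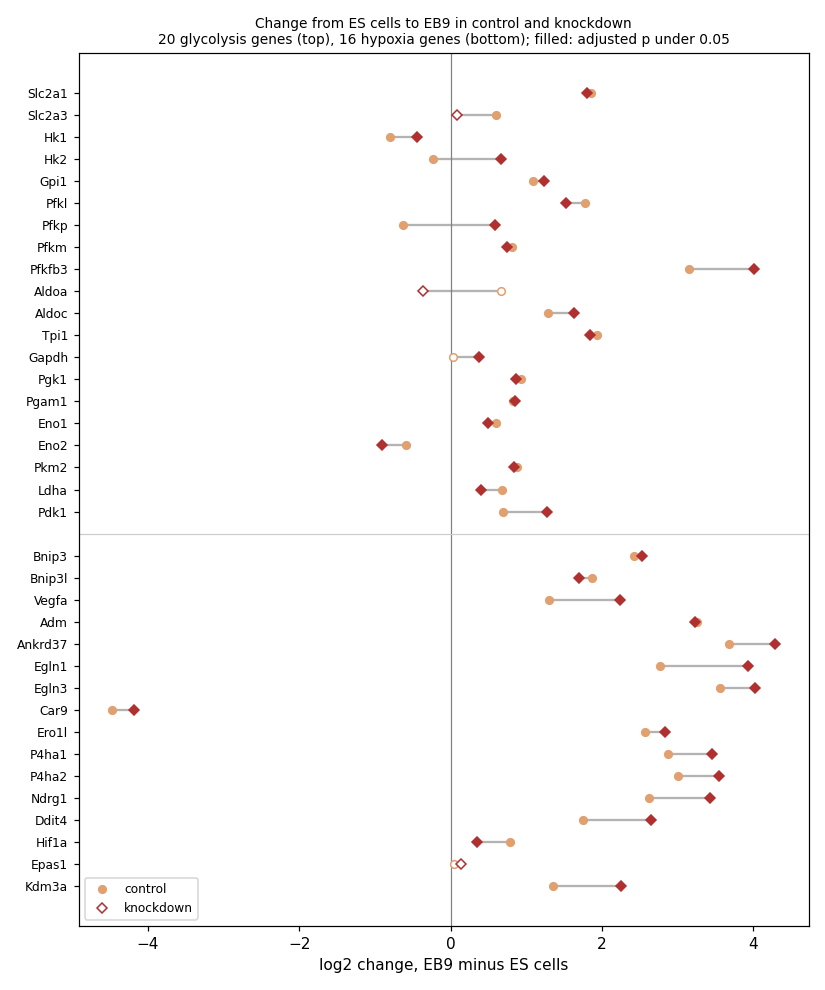
Log2 change from ES cells to EB9 in control (circles) and knockdown (diamonds) for the 20 glycolysis and 16 hypoxia genes; open symbols did not pass. Ankrd37 stands at 3.68 in control and 4.29 in knockdown, Car9 at −4.48 and −4.18, and Pfkp and Hk2 have opposite signs in the 2 comparisons.

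Genes of the same pathways outside the members were read in the same fits, where the shares of all genes called higher and lower were 7.96% and 7.2% in EB9, 22% and 16.5% in ES cells, and 12.7% and 17% for the difference of effects. The lists were chosen with earlier results of these data known, so their counts are not a separate check on the members. Of 29 further hypoxia targets tested, 18 were higher in EB9 knockdown and 0 lower, with a median of 0.40. With the slide as a block 25 were higher and 0 lower (13.5% and 13.2% of all genes). At an unadjusted limma p under 0.05, for which no share of all genes was counted, also 25 targets were higher and 0 lower. Those with the lowest adjusted p were Ppp1r3c, a glycogen-targeting phosphatase subunit (0.58), Stc2, a stanniocalcin hormone (0.53), Higd1a, a mitochondrial hypoxia-induced protein (0.48), and Slc16a3, the lactate exporter MCT4 (0.42), at adjusted p of 0.000223, 0.000312, 0.000334 and 0.00082. In ES cells 7 of the 29 were higher and 8 lower, among them Stc2 (−1.03) and the transferrin receptor Tfrc (0.95). The endothelin Edn1 was also called lower there, with a probe not well above background on any ES knockdown array. The difference of effects passed for 13 higher and 2 lower.

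Of 17 regulators of HIF, 4 were higher and 2 lower in EB9 knockdown. Arnt2, a partner of the alpha subunits, changed by −0.67 (adjusted p = 0.0053), the ubiquitin ligase Siah2, which acts on the Egln proteins, by 0.32, the ligase scaffold Cul2 by −0.26, and the coactivator Crebbp by 0.33. In ES cells 7 were higher and 3 lower. Cited2, which competes with HIF for its coactivators, fell by 1.13 (adjusted p = 4.29e-07), Siah2 changed by −0.53, Hif3a by 0.76 and Eloc, a subunit of the von Hippel-Lindau ligase, by 0.36.

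Of 29 further genes of glycolysis and pyruvate use, 5 were higher and 3 lower in EB9 knockdown (median −0.08), among them the insulin-responsive transporter Slc2a4 (0.56), Pdk4 (0.50), Pdha1 (−0.28) and Pfkfb2 (0.22). In ES cells 6 were higher and 2 lower, both below the shares of all genes called there; the lowest adjusted p were those of Ldhb (1.12), Pfkfb2 (0.51), Mpc2 (0.40) and Pdp1 (−0.36). Of 16 genes of the pentose phosphate, gluconeogenesis and hexosamine pathways, 1 was higher and 4 lower in EB9 knockdown (median −0.20), and 9 lower with the slide as a block. Pcx (0.35), Fbp1 (−0.49), Taldo1 (−0.33) and Rpia (−0.29) had the lowest adjusted p there. In ES cells this list gave 7 higher and 4 lower.

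Other stress genes also moved in EB9. Of 20 genes of the ATF4 and endoplasmic reticulum stress responses, 8 were higher and 1 lower (median 0.19), with Atf3 at 0.63, Herpud1 at 0.50, Dnajb9 at 0.43 and Ddit3 at 0.57. In ES cells they gave 7 higher and 3 lower. Of 14 genes of the Myc and Max network, 3 were higher and 2 lower in EB9, Txnip at 0.51 and Mycn at −0.43 among them. Myc itself changed by −0.24 in EB9 (adjusted p = 0.0309) and by −0.66 in ES cells (adjusted p = 1.93e-05).

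Markers of other cell types also differed between the EB9 groups. Of 6 primitive streak and mesoderm markers tested, 4 were lower in EB9 knockdown (median −1.12), led by Eomes at −0.89, T at −2.79, Mesp1 at −1.67 and Fgf8 at −1.35, and the mean level of the list per array ran from −2.52 to −1.94 in knockdown and from −1.51 to −0.75 in control. Of 10 pluripotency markers 4 were higher, Dppa3 at 1.06 among them; the list's mean level ran from −0.52 to −0.26 in EB9 knockdown and from −0.85 to −0.46 in control. Visceral endoderm gave 0 higher and 2 lower of 7 (Cubn −1.28 and Amn −1.23; mean level −0.58 to 1.06 in knockdown and 0.57 to 0.88 in control), endothelium 0 and 1 of 6 (Sox17 −0.58; −0.17 to 0.01 against 0.08 to 0.25), and neural cells 1 and 0 of 6 (Stmn4 1.62; −2.76 to −2.47 against −3.01 to −2.26). No call was made in limma among 7 cardiac, 7 red cell or 6 mesenchyme markers, apart from Twist1 with the slide as a block (−0.66, adjusted p = 0.00595, against 0.109 without it). Their mean levels overlapped between the EB9 groups: −1.44 to −0.84 against −1.48 to −0.73, 0.92 to 2.65 against 1.18 to 2.49, and 3.60 to 3.80 against 3.61 to 3.83. At an unadjusted limma p under 0.05 the cardiac list had 1 higher and 0 lower, the red cell list 0 and 0, and the mesenchyme list 1 and 1. The share of all genes at that threshold was not counted. The median changes in EB9 were 0.11 for the cardiac, 0.43 for the red cell and 0.01 for the mesenchyme list. Above 0 were 5 of 7, 6 of 7 and 3 of 6 of their genes, against 47.3% of all genes. The lack of calls does not show that these levels are alike. The part of the marker shifts in the change of the hypoxia and glycolysis genes was not tested.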

How the data were processed

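RNA of 15 samples (500 ng each) was labelled and hybridised to 1-colour arrays, which were scanned with Agilent Feature Extraction 10.7.3.1, per the file headers. The deposited intensity values are the processed signal of each array, background corrected and detrended by that software and not scaled between arrays. The deposited log2 table of the authors matched values computed here by normexp correction (offset 50) and then quantile normalization, and served as an alternative; the steps behind it are not given in the sources used here. Probe positions in the files are on mm9.

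Control and outlier spots were left out, repeated spots averaged, and log2 signals set relative to each array's 75th percentile. Probes well above background on 3 or more arrays of a group were kept (27248 probes, 21184 genes, by the brightest probe). Group means were fitted over all 15 arrays with limma 3.58.1 in R 4.3.3, with Benjamini-Hochberg adjustment at 0.05. The fit was tested on simulated data with independent noise and no slide effect, so the test does not cover arrays that deviate together. It recovered 77% of 200 changes of 1 log2 unit, and 4.35% of its calls were false. Smaller changes were not simulated. Alternatives were other scalings, probe filters, the slide as a block, limma's array weights, a fit of only the groups compared, and leaving out each array. The number of arrays limits the precision.

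Same-slide arrays of different groups deviated together (median r 0.43, lowest 0.215, over 21 pairs), so the slide pairs them. The main fit had no slide term, so its SE and adjusted p did not use this pairing. The fits with the slide as a block did. Replicate number equals the slide except in the ES controls, whose arrays 2, 3 and 4 lay on slides 1, 2 and 3. All members were named; genes outside them were named from the lists by lowest adjusted p, up to 4 per comparison, except Twist1, named after its values were seen. Members and lists were chosen with earlier results of these data known.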

Additional observations from a re-analysis of the deposited data

Results flagged for a closer look

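Among 108 sets of 4 arrays, a gene in a group, 6 had an array set apart from the other 3 by Dixon's criterion, which chance gives in about 1 of 20 sets. Aldoa, an aldolase, read 4.14 on EB9 knockdown 4 and 7.59 to 7.93 on the others, by far the widest gap. Slc2a1 read 4.31 on ES knockdown 3 against 4.49 to 4.50. Pdk1 read 0.96 on EB9 control 1 against 1.09 to 1.12, and Ankrd37 2.96 on EB9 control 1 against 2.55 to 2.61. Egln3 read 1.78 on EB9 knockdown 1 against 2.02 to 2.04, and Hif1a −0.44 on ES knockdown 2 against −0.19 to −0.14.

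The knockdown effect differed between EB9 and ES cells, by limma's test of the difference, for 15 members. On the log2 scale, the effect in EB9 minus that in ES cells was above 0 for Hk2 (0.90), Pfkp (1.21), Pfkfb3 (0.86), Pdk1 (0.59), Vegfa (0.94), Ankrd37 (0.62), Egln1 (1.16), Egln3 (0.46), P4ha1 (0.58), P4ha2 (0.54), Ndrg1 (0.80), Ddit4 (0.91) and Kdm3a (0.89). It was below 0 for Slc2a3 (−0.52) and for the brightest Hif1a probe (−0.45).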

How the results depend on the processing

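Of 180 values, 5 comparisons of 36 members, 123 passed, and 97 kept call and direction under all 29 alternatives. Members higher in EB9 knockdown numbered 20, and 13 with only the compared groups in the fit (single probes 31 and 20); members lower numbered 0, and 1 with median scaling, slide as a fixed or random block, the replicate block or array weights. Single probes lower there numbered 1, and 2, 0, 2, 3, 2 and 3 with median scaling, only the compared groups, slide fixed, slide random, the replicate block and array weights. Members higher in ES knockdown numbered 13, and 6 with median scaling and 20 with array weights (single probes 22, 13 and 36). Calls over all genes moved with the setting too: 4654 genes were higher in ES knockdown in the main fit and 3402 with median scaling. The other counts in this section are given without the share of all genes, and none was counted over all probes. A shift of such a count is therefore not by itself a result about the members. With median scaling, normexp or the authors' values, members with a lower difference of effects went from 2 to 1 (single probes 5 to 2), and single probes lower in EB9 than ES knockdown from 5 to 3. The replicate block gave 20 members higher and 1 lower in EB9 and 12 and 7 in ES cells, where the ES control numbers do not match the slides.

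Leaving out 1 array gave 18 to 21 members higher and 0 to 1 lower in EB9 (the 1 being Car9, without EB9 control 1 or EB9 knockdown 2), and 9 to 14 higher and 6 to 9 lower in ES cells. Single probes lower ranged from 0 to 3 in EB9, from 6 (without ES control 3) to 11 in ES cells, and from 3 (without ES control 3 or 4) to 5 for the difference of effects. The Aldoa difference between EB9 and ES knockdown ranged from −0.71 to 0.55, turning without EB9 knockdown 4. With the mean of a gene's probes, Hif1a turned to −0.24 in ES cells and 0.38 for the difference of effects, and Epas1 to −0.41 between EB9 and ES knockdown, as their probes disagree. The cause of the other shifts was not tested.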
